A study of Mus musculus with 8 samples.

Results

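The genes described here are 35 named enzymes, regulators and transporters through which a muscle fibre takes up glucose, stores it as glycogen, breaks it down to pyruvate and exports lactate. They were chosen by name, with earlier results of these data known. Each was found on 1 of the 22206 probe sets of the deposited table, where the brightest probe set of a gene would have been used had there been several. Levels come from Clariom S Mouse arrays of total RNA from the gastrocnemius (GAS) of male C57/Bl6j mice. One leg received an adeno-associated virus (AAV) in which a U6 promoter drives a short hairpin RNA (sh-RNA) against the transcript of *Mytho* (AAV sh-RNA MYTHO, called MYTHO-KD here). The contralateral leg received the same kind of virus with a scramble sh-RNA (AAV sh-RNA scrmb, called scramble). Injection was at about 10 weeks of age and the muscles were taken 12 weeks later, at 22 weeks, with 4 arrays in each group. The U6 promoter is active in any cell that takes up the virus, and RNA was taken from a piece of the muscle with all its cells, so a change in the number of cells of a type and a change of RNA in each cell cannot be told apart.

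For each probe set the table gives the authors' average and standard deviation (SD) of each group on the log2 scale, so 1 unit is a factor of 2. Values of single arrays are not used here. Genes are said to have risen or fallen where the averages differed by at least 2-fold and limma's moderated test gave an unadjusted p below 0.05, the threshold of the study's methods, or where the p adjusted over all probe sets was below 0.05. The target itself, listed as *D230025D16Rik*, fell from 10.02 ± 0.37 in scramble to 7.71 ± 0.66 in MYTHO-KD (authors' average ± SD), leaving 20.2% of the scramble signal. Its log2 difference was -2.31 (standard error 0.304, adjusted p = 0.0138, limma). Signals ran from 3.18 to 19.93, and 16 probe sets had both averages at that upper end, where the scale no longer shows a change.

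Glycolysis splits glucose into pyruvate through a chain of cytosolic enzymes, and it supplies fast muscle fibres with ATP during short efforts. Phosphofructokinase is its main control point, and the bifunctional PFKFB enzymes make and remove the sugar bisphosphate that activates it. Muscle glycogen is cut by phosphorylase, which is switched on by phosphorylase kinase, and is built by glycogen synthase, which a phosphatase bound to glycogen through targeting subunits switches on. Glucose enters through GLUT transporters, and lactate crosses the membrane through monocarboxylate transporters (MCT).

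Of the 35 genes, *Pfkfb3* fell and *Slc16a1* rose, while the enzymes of the glycolytic chain itself had averages within 1.5-fold of scramble, apart from the lactate dehydrogenase isoform *Ldhb*. For *Aldoa* and *Gapdh*, at or near the upper end of the scale, a change may have gone unseen. *Pfkfb3*, the PFKFB isoform with the highest ratio of kinase to phosphatase activity, was at 24.5% of its scramble signal. *Slc16a1*, which encodes MCT1, was 2.04-fold higher. Below the 2-fold limit, phosphorylase kinase subunits, the glycogen targeting subunits *Ppp1r3a* and *Ppp1r3c*, and the glycerol phosphate dehydrogenase *Gpd1* were lower, with log2 differences from -0.78 to -0.54 at an unadjusted p under 0.05 (*Phka1*, at -0.22, was the exception). At that p the branching enzyme *Gbe1* was higher by 0.92 and the glycogen synthase *Gys1* by 0.42, and the enolase *Eno3* was lower (-0.32).

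The 2-fold rule called 1 member higher and 1 lower, or 5.71% of the members, against 1.12% of all probe sets (0.86% higher and 0.257% lower). An adjusted p under 0.05 was reached by 1 member, *Pfkfb3*, which was lower, and by 0.275% of all probe sets (0.18% higher and 0.0946% lower). At an unadjusted p under 0.05, whatever the fold, 3 members were higher and 7 lower, together 28.6% of the members against 12% of all probe sets (6.48% higher and 5.52% lower). At 1.5-fold with that p, 2 members were higher and 3 lower (14.3%), against 5.8% of all probe sets (3.54% higher and 2.25% lower). The averages of 9 members were further apart than the sum of both SDs (2 higher and 7 lower, 25.7%), as were those of 7.99% of all probe sets (4.03% higher and 3.96% lower). Over the 35 members the median log2 difference was -0.14, with 14 higher, 19 lower and 2 equal, and over all probe sets it was -0.01. The members lie mostly in the bright range, and 18 have a mean signal of 16 or more. Of those, 13 were lower and 3 higher (median -0.22), while over all 239 probe sets of that brightness 103 were lower and 115 higher (median 0.00). At an unadjusted p under 0.05 (limma), 1 of the 18 was higher and 5 were lower, against 26 higher and 25 lower of the 239. Probe sets of all levels are therefore not a like background for the bright members.

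**Figure D1:**
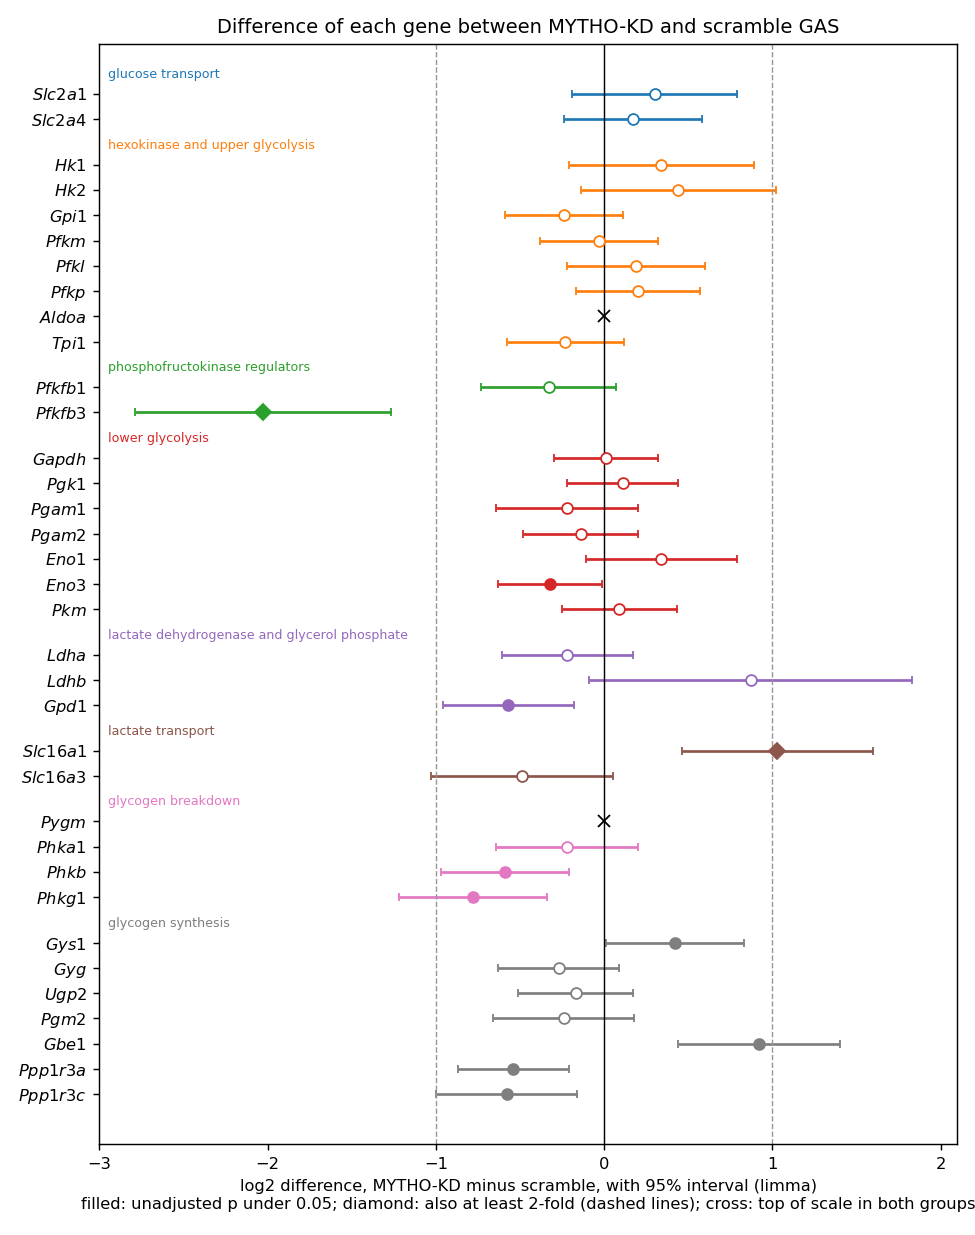
Log2 difference between MYTHO-KD and scramble (x axis) for each of the 35 genes (y axis, grouped by role), with the 95% interval of limma's moderated test (filled, unadjusted p under 0.05; diamond, also at least 2-fold; cross, upper end of the scale in both groups). *Pfkfb3* stands at -2.03 and *Slc16a1* at 1.03, and most enzymes of the chain have intervals that include 0.

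The 2 genes that passed the 2-fold rule are shown with the 250 bases before their start sites, because they are the members whose transcript level moved most between the groups. *Pfkfb3* lies on chromosome 2, minus strand, from 11471430 to 11553929, and *Slc16a1* on chromosome 3, plus strand, from 104638664 to 104658462 (mm10, as the table gives them). The sequences are RefSeq's on GRCm38.p6, read 5′ to 3′ on the gene's strand. Capitals mark matches on either strand to the hypoxia-inducible factor core ACGTG, the E-box CACGTG (which contains that core), or the GC box GGGCGG.
Pfkfb3, inner start site, chr2:11502091-11502340: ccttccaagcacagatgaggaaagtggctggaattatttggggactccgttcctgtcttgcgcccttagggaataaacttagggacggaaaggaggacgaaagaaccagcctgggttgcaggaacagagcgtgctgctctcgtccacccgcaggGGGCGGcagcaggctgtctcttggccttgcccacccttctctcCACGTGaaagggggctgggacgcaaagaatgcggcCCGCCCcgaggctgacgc
Pfkfb3, outer start site, chr2:11553930-11554179: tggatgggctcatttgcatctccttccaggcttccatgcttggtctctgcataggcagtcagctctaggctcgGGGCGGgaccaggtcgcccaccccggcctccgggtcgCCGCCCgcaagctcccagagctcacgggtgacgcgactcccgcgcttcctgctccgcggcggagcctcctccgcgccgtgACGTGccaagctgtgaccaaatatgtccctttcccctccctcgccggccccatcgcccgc
Slc16a1, chr3:104638414-104638663: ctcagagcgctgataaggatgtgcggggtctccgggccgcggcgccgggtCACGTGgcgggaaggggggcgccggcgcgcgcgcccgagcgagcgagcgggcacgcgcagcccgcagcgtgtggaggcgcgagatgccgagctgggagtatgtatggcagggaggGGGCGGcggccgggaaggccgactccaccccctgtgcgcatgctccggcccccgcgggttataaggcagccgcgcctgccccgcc
All 3 windows hold the ACGTG core, and the inner *Pfkfb3* window and the *Slc16a1* window hold it within CACGTG. The gene that fell and the gene that rose carry the same letters there. Of the 48 RefSeq promoters found for 33 members, 37.5% hold ACGTG within 250 bases before the start, against 16.6% of all 32851 promoters, and 10.4% hold CACGTG against 6.02%. The GC box was found in 50% of member promoters and in 32.7% of all, and the members' windows are richer in G and C (median 60%, against 52.4%). The MEF2 motif was found in 6.25% of member promoters, against 3.2% of all, and the TATA box letters TATAAA in 6.25% against 12.4%. The letters GTAAACA of a FoxO site were found in 0 of the 48, and in 3.17% of all promoters. Both strands were searched for each motif. A match of letters is a description and shows no binding. *Slc2a4* and *Gpd1* were not matched.

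*Slc2a4* encodes GLUT4, which moves to the fibre membrane under insulin or contraction, and *Slc2a1* encodes GLUT1, the transporter of basal uptake. *Slc2a4* averaged 13.19 ± 0.18 in scramble and 13.36 ± 0.31 in MYTHO-KD. Its log2 difference of 0.17 had a 95% interval from -0.24 to 0.58. *Slc2a1* averaged 8.37 ± 0.28 and 8.67 ± 0.41 (difference 0.30, interval -0.19 to 0.79). Neither differed beyond the spread between arrays, and the intervals leave room for a rise of up to 0.79 on the log2 scale.

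Hexokinases trap glucose in the cell as its phosphate, and *Hk2* is the isoform under insulin control in muscle. It averaged 13.41 ± 0.63 in scramble and 13.85 ± 0.05 in MYTHO-KD, a difference of 0.44 (interval -0.14 to 1.02). The scramble arrays were widely spread and the MYTHO-KD arrays closely grouped. *Hk1*, the widely expressed isoform, went from 7.96 ± 0.37 to 8.30 ± 0.46 (difference 0.34, interval -0.21 to 0.89). *Gpi1*, which turns glucose phosphate into fructose phosphate, averaged 17.37 ± 0.15 and 17.13 ± 0.16 (difference -0.24). Its adjusted p was 0.612 (limma).

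The muscle phosphofructokinase *Pfkm* averaged 18.24 ± 0.11 in scramble and 18.21 ± 0.17 in MYTHO-KD, a difference of -0.03 with an interval from -0.38 to 0.32. The liver isoform *Pfkl* (7.12 ± 0.24 and 7.31 ± 0.24) and the platelet isoform *Pfkp* (7.76 ± 0.06 and 7.96 ± 0.25) were 0.19 and 0.20 higher, neither with an unadjusted p under 0.05. *Tpi1*, the triose phosphate isomerase, averaged 17.60 ± 0.17 and 17.37 ± 0.14 (difference -0.23, interval -0.58 to 0.12). *Aldoa*, the muscle aldolase, stood at 19.93 with an SD of 0 in both groups. That is the upper end of the scale, so a change in either direction above it could not be seen.

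*Pfkfb3* averaged 15.99 ± 0.39 in scramble and 13.96 ± 0.81 in MYTHO-KD. The averages were further apart than both SDs together, and the MYTHO-KD arrays were the more spread. The log2 difference was -2.03 (standard error 0.35, 95% interval -2.79 to -1.27), a fall of 4.08-fold. The unadjusted p was 8.82e-05 and the adjusted p was 0.0392 in limma's moderated test. Among all probe sets the size of this difference lay at the 99.9 percentile. The adjusted p ran from 0.0282 to 0.432 over the other ways of estimating the variance and the set of genes tested. *Pfkfb1*, the isoform of liver and muscle, averaged 14.44 ± 0.24 and 14.11 ± 0.21 (difference -0.33, interval -0.73 to 0.07, unadjusted p = 0.0937, limma). Whether *Pfkfb3* and *Pfkfb1* differed in their response was not tested. Of the remaining isoforms, *Pfkfb2*, abundant in heart, was 0.54 higher (9.66 ± 0.25 and 10.20 ± 0.39, adjusted p = 0.346, limma), on a probe set that also names a pseudogene.

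**Figure D2:**
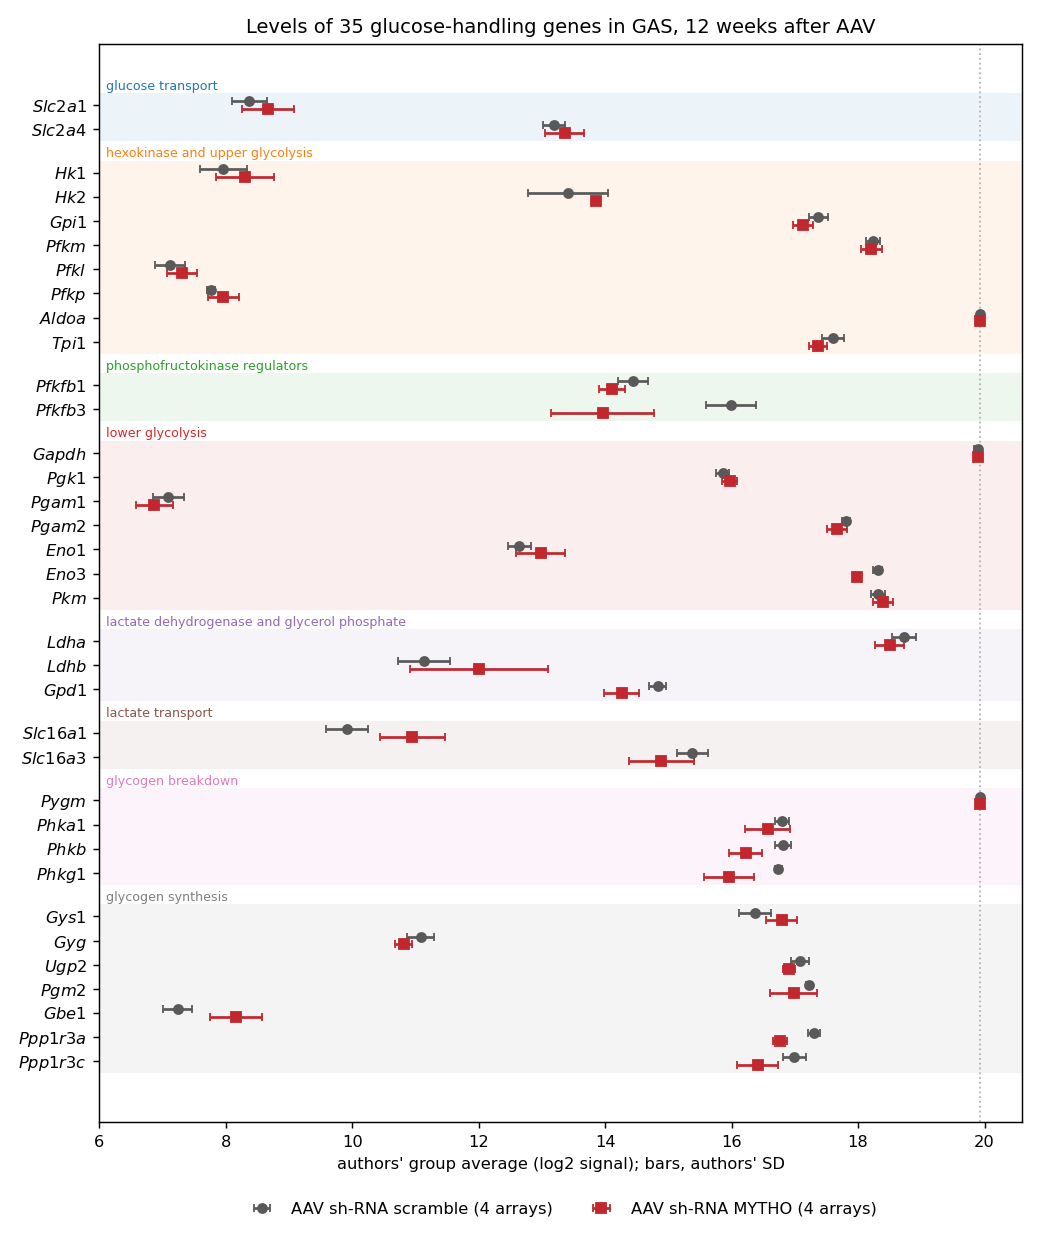
Authors' group average of each of the 35 genes (x axis, log2 signal, bars show the authors' SD over 4 arrays) in scramble (grey circles) and MYTHO-KD (red squares), with genes grouped by role on the y axis. The dotted line marks the upper end of the scale at 19.93, where *Aldoa* and *Pygm* stand in both groups, and the symbols of *Pfkfb3* are the furthest apart.

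From the triose phosphates on, *Gapdh* yields NADH, *Pgk1* and *Pkm* make ATP, and the mutase and enolase steps lie between them. *Gapdh* averaged 19.89 ± 0.06 in scramble and 19.90 ± 0.00 in MYTHO-KD, so close to the upper end that a rise could not be seen. *Pgk1* averaged 15.86 ± 0.10 and 15.97 ± 0.12 (difference 0.11, interval -0.22 to 0.44). *Pkm* averaged 18.31 ± 0.11 and 18.40 ± 0.16 (difference 0.09, interval -0.25 to 0.43). The intervals of both lie well inside a 2-fold change.

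For the mutase, the muscle isoform *Pgam2* averaged 17.81 ± 0.07 and 17.67 ± 0.16 (difference -0.14) and the brain isoform *Pgam1* 7.09 ± 0.24 and 6.87 ± 0.29 (difference -0.22). For enolase, the isoforms had opposite signs. The muscle isoform *Eno3* averaged 18.31 ± 0.07 in scramble and 17.99 ± 0.04 in MYTHO-KD, and although the difference was small (-0.32) the averages lay further apart than the sum of the SDs. Its standard error was 0.144, its unadjusted p 0.0465 and its adjusted p 0.408 (limma). The ubiquitous isoform *Eno1*, whose probe set also names the retrogene *Eno1b*, averaged 12.64 ± 0.18 and 12.98 ± 0.39 (difference 0.34, interval -0.11 to 0.79). Along the chain from *Hk2* to *Ldha*, taking the muscle or sole isoform at each step, 4 of 11 genes were higher, 6 lower and 1 equal, with a median of -0.03. The equal gene is *Aldoa*, and *Gapdh* is counted as higher, though both stand at or near the upper end of the scale.

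*Ldha* encodes the subunit that favours lactate formation and *Ldhb* the subunit of oxidative tissues. *Ldha* averaged 18.72 ± 0.19 in scramble and 18.50 ± 0.23 in MYTHO-KD (difference -0.22, interval -0.61 to 0.17). *Ldhb* averaged 11.13 ± 0.41 and 12 ± 1.09, and its SD in MYTHO-KD was the largest of any member in either group. The difference of 0.87 therefore had an interval from -0.09 to 1.83 (adjusted p = 0.46, limma) and is not called. Slow fibres are rich in *Ldhb*, and 7 of the 9 genes of the slow or oxidative fibre list were more spread still in MYTHO-KD. The SD of *Myh7* was 3.26 in MYTHO-KD against 1.30 in scramble, and that of *Tnni1* 3.67 against 1.43. The other two, *Mb* (myoglobin) and *Myh2* (the myosin of oxidative fast fibres), had SDs of 0.34 and 0.01 there, and they had the lowest p of the list. *Mb* averaged 18.82 ± 0.13 in scramble and 19.75 ± 0.34 in MYTHO-KD (difference 0.93, adjusted p = 0.0754, limma), and *Myh2* 19.50 ± 0.16 and 19.91 ± 0.01 (difference 0.41, adjusted p = 0.315). The MYTHO-KD averages of *Mb* and *Myh2* stand near the upper end of the scale at 19.93, so their spread and their rise may be understated. For the tibialis anterior, the study reports lower *Myh2* mRNA after the knockdown. Over the list 4 genes were higher and 5 lower (median -0.01). Fibre types are unevenly distributed in the GAS, and the sources used here do not say from which region each piece came. The part of slow fibres or of the sampled region in the spread of *Ldhb* was not tested.

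*Gpd1* encodes the cytosolic enzyme that turns a glycolytic triose phosphate into glycerol phosphate and regenerates NAD. It averaged 14.83 ± 0.13 in scramble and 14.26 ± 0.28 in MYTHO-KD, with the averages further apart than both SDs together. The difference was -0.57 (standard error 0.179, interval -0.96 to -0.18), with an unadjusted p of 0.00792 and an adjusted p of 0.22 (limma). Fat cells are rich in this enzyme too, and of 7 adipocyte markers 6 had lower averages in MYTHO-KD (median -0.33), 0 of them called, with SDs of up to 2.13 in MYTHO-KD and 2.22 in scramble. Their part in the difference of *Gpd1* was not tested. Its mitochondrial partner in the glycerol phosphate shuttle, *Gpd2*, was lower as well, from 13.77 ± 0.27 to 12.96 ± 0.34 (difference -0.81, adjusted p = 0.147, limma). The transaminases of the malate-aspartate shuttle had the opposite sign. *Got1* was 0.84 higher (adjusted p = 0.289) and *Got2* 0.43 higher (adjusted p = 0.364, limma). Of the 9 shuttle genes listed besides *Gpd1*, 7 were higher, 1 lower and 1 equal, and 0 passed the 2-fold rule.

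*Slc16a1* encodes MCT1, the transporter of oxidative fibres and many other cells, and *Slc16a3* encodes MCT4, which exports lactate from glycolytic fibres. *Slc16a1* averaged 9.92 ± 0.33 in scramble and 10.95 ± 0.52 in MYTHO-KD, with the averages further apart than the sum of the SDs. The log2 difference was 1.03 (standard error 0.261, interval 0.46 to 1.60). It passed the 2-fold rule (unadjusted p = 0.00197) but not the adjustment over all probe sets (adjusted p = 0.141, limma). It stood just past the limit of 1 on the log2 scale, and *Gbe1* at 0.92 just short of it. *Slc16a3* averaged 15.38 ± 0.24 and 14.89 ± 0.52, a difference of -0.49 with an interval from -1.03 to 0.05. The SDs of both transporters were the same in MYTHO-KD, 0.52, and larger than in scramble. *Bsg*, the chaperone that carries both to the membrane, averaged 18.16 ± 0.08 and 18.03 ± 0.01 (difference -0.13).

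Cells other than fibres also use MCT1, and markers of several such cell types were higher in the same comparison. Of 15 macrophage markers 14 were higher (median 0.66), of which 5 rose at least 2-fold, led by *Cd68* (from 6.90 ± 0.20 to 9.43 ± 0.88). Signals of different probe sets do not add up to a level, so no sum is given. All 15 were marked as expressed in scramble, as were all but 596 of the 22206 probe sets. All 10 fibroblast markers were higher (median 0.825, 4 risen) and all 10 endothelial markers too (median 0.31, 0 risen). Of 6 probe sets of red blood cell genes 5 were higher (median 0.395). Of 8 genes of regenerating fibres 5 were higher (median 0.185, 3 risen), with *Myh8* at the upper end of the scale in both groups. The 8 Schwann cell and nerve genes had a median of -0.06 with 0 calls, and the 7 adipocyte markers a median of -0.33 with 0 calls. The part of these cells in the rise of *Slc16a1* was not tested. Markers of fast glycolytic fibres had a median of -0.03 over 11 genes and those of muscle fibre identity of 0.00 over 9, though several of these stand at the upper end of the scale. Of the fast fibre genes 2 were higher, 6 lower and 3 equal, and *Myh1* had the lowest p (difference 0.59, adjusted p = 0.23, limma).

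**Figure D3:**
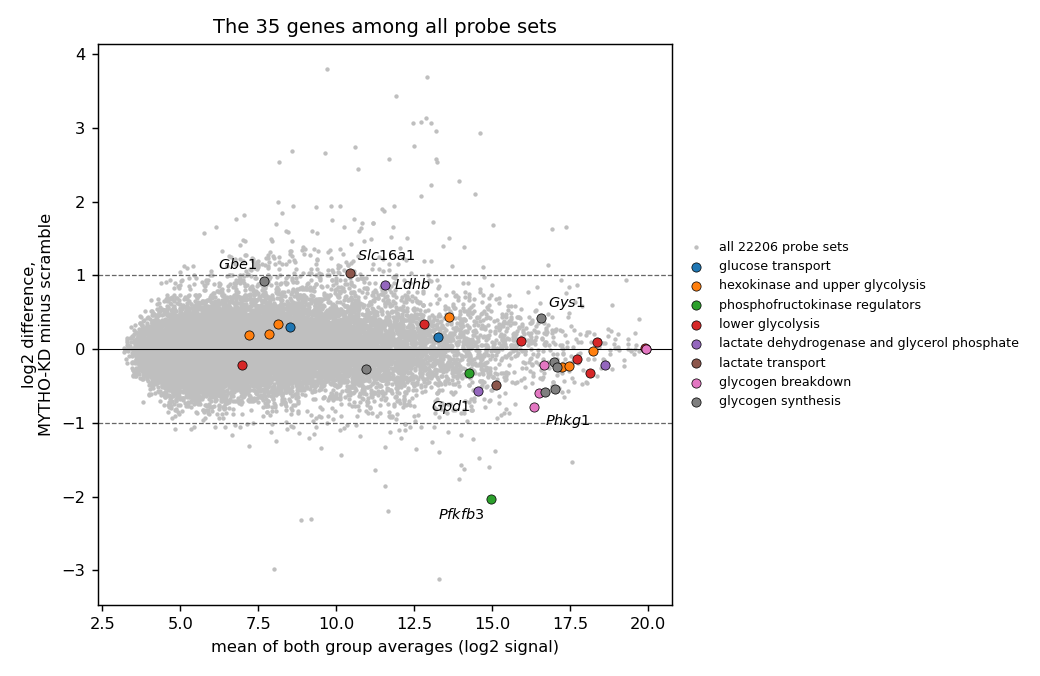
Log2 difference between MYTHO-KD and scramble (y axis) against the mean of both group averages (x axis, log2 signal) for all 22206 probe sets (grey) and the 35 genes (coloured by role). Dashed lines mark a 2-fold difference, and *Pfkfb3* and *Slc16a1* lie outside them.

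*Pygm*, the muscle glycogen phosphorylase, stood at 19.93 with an SD of 0 in both groups, at the upper end of the scale. Phosphorylase kinase joins a catalytic gamma subunit with the regulatory alpha and beta subunits and calmodulin. The gamma subunit *Phkg1* averaged 16.74 ± 0.05 in scramble and 15.96 ± 0.40 in MYTHO-KD, a difference of -0.78 (standard error 0.201, interval -1.22 to -0.34). Scramble arrays were closely grouped and the MYTHO-KD average lay below them by more than both SDs. The unadjusted p was 0.00225 and the adjusted p 0.147, with 0.0465 to 0.518 over the other settings (limma).

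The beta subunit *Phkb* averaged 16.81 ± 0.13 and 16.22 ± 0.26, a difference of -0.59 (standard error 0.175, interval -0.97 to -0.21, adjusted p = 0.199, limma). The alpha subunit *Phka1* averaged 16.79 ± 0.11 and 16.57 ± 0.36 (difference -0.22, interval -0.64 to 0.20). All 3 of these subunits thus had a lower average in MYTHO-KD, 2 of them at an unadjusted p under 0.05. The liver forms *Phka2* (-0.06) and *Phkg2* (-0.19) differed less than their standard errors of 0.188 and 0.242.

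Calmodulin, the calcium-sensing subunit, is made from several genes that encode the same protein, *Calm2* and *Calm3* among them. *Calm3* fell from 15.80 ± 0.26 in scramble to 14.42 ± 0.47 in MYTHO-KD, a log2 difference of -1.38 (standard error 0.238, adjusted p = 0.0392, limma). *Calm2* averaged 14.76 ± 0.13 and 14.62 ± 0.13 (difference -0.14). Calmodulin serves many other enzymes and channels besides phosphorylase kinase. Of the 13 further genes listed for glycogen breakdown, 3 were higher and 10 lower (median -0.08), and *Calm3* alone passed the 2-fold rule. The lysosomal glucosidase *Gaa* (difference -0.06) was near scramble.

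*Gys1* encodes muscle glycogen synthase and averaged 16.37 ± 0.26 in scramble and 16.79 ± 0.24 in MYTHO-KD. The difference of 0.42 (standard error 0.189, interval 0.01 to 0.83) had an unadjusted p of 0.0466 and an adjusted p of 0.408 (limma), and the averages were closer than the sum of the SDs. The unadjusted p was 0.0552 without moderation, 0.0555 with unequal variances and 0.0678 after a running median was subtracted. *Gbe1* encodes the branching enzyme and averaged 7.24 ± 0.23 and 8.16 ± 0.41. Its averages were further apart than both SDs together, with a difference of 0.92 (standard error 0.219, interval 0.44 to 1.40, unadjusted p = 0.00126, adjusted p = 0.115, limma). It was 1.89-fold higher, below the 2-fold rule. The remaining enzymes of the route had slightly lower averages in MYTHO-KD. *Pgm2*, as the table names the phosphoglucomutase on chromosome 4 that RefSeq now calls *Pgm1*, averaged 17.22 ± 0.05 and 16.98 ± 0.37 (difference -0.24). *Ugp2*, which makes UDP-glucose, averaged 17.08 ± 0.14 and 16.91 ± 0.10 (difference -0.17). *Gyg*, the protein primer of glycogen, averaged 11.08 ± 0.21 and 10.81 ± 0.13 (difference -0.27). None of these 3 had an unadjusted p under 0.05, and their intervals ran from -0.66 at the lowest to 0.18 at the highest.

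The targeting subunits hold the phosphatase that activates glycogen synthase on the glycogen particle. *Ppp1r3a*, the striated muscle form, averaged 17.30 ± 0.10 in scramble and 16.76 ± 0.11 in MYTHO-KD. The arrays of both groups were closely grouped and the averages lay further apart than the sum of the SDs. The difference was -0.54 (standard error 0.151, interval -0.87 to -0.21), with an unadjusted p of 0.00383 and an adjusted p of 0.17 (limma). *Ppp1r3c* averaged 16.99 ± 0.18 and 16.41 ± 0.33, a difference of -0.58 (standard error 0.194, interval -1 to -0.16, adjusted p = 0.258, limma). The liver form *Ppp1r3b* (difference -0.12) and the more widely expressed *Ppp1r3d* (-0.22) did not reach an unadjusted p under 0.05.

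The 5 members that encode subunits regulating breakdown or synthesis, *Phka1*, *Phkb*, *Phkg1*, *Ppp1r3a* and *Ppp1r3c*, were all lower, with a median of -0.58, and 4 of them had an unadjusted p under 0.05. None passed the adjustment. All 5 have a mean signal above 16, and of the 239 probe sets with a mean signal of 16 or more, 25 were lower at that unadjusted p. Over all probe sets 5.52% were. *Gys1* (difference 0.42) and *Gbe1* (0.92), outside this group, were higher at that p. This group was formed after the values were seen and has no test of its own.

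For 24 of the 35 members the authors' SD was larger in MYTHO-KD, for 8 it was larger in scramble, and for 3 it was equal. Over all probe sets the SD was larger in MYTHO-KD for 48.1%, and over the 239 probe sets with a mean signal of 16 or more for 57.7%. The median SD of the members was 0.24 in MYTHO-KD and 0.17 in scramble, while over all probe sets it was 0.27 in both. *Phkg1* (0.40 and 0.05), *Pgm2* (0.37 and 0.05), *Phka1* (0.36 and 0.11), *Pfkfb3* and *Ldhb* were among those with the wider MYTHO-KD arrays, and *Hk2* went the other way. Which arrays carry the spread cannot be read from averages and SDs.

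**Figure D4:**
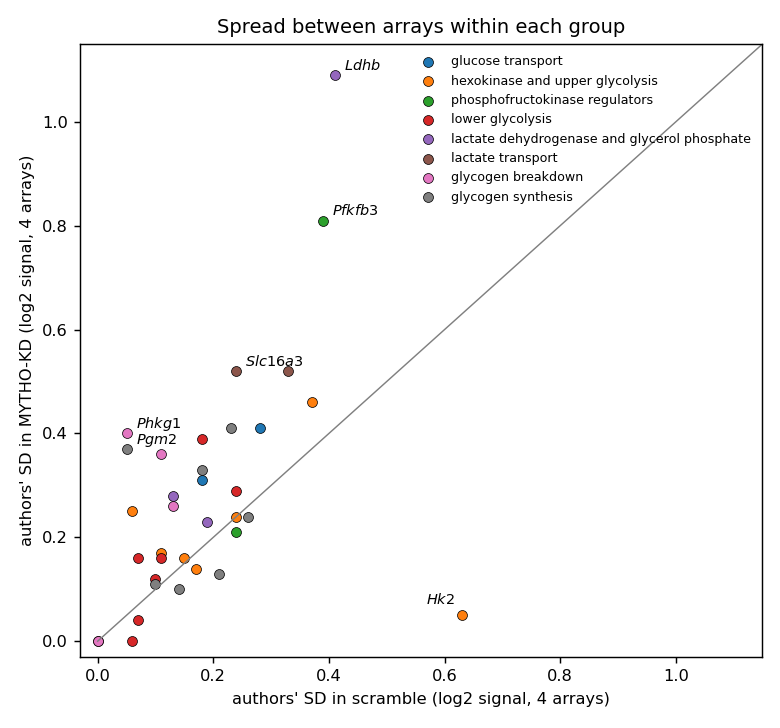
Authors' SD over 4 arrays in MYTHO-KD (y axis, log2 signal) against that in scramble (x axis) for the 35 genes, coloured by role, with the line of equal SDs. 24 genes lie above the line, *Ldhb* the highest at 1.09, and *Hk2* lies far below it.

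Around glucose entry, *Tbc1d1* and *Tbc1d4* encode the Rab regulators that hold GLUT4 inside the cell until they are phosphorylated. *Tbc1d1*, at 9.69 ± 0.41 in scramble, rose to 11.46 ± 0.63 with the knockdown, a log2 difference of 1.77 (standard error 0.302, adjusted p = 0.0388, limma). *Tbc1d4* averaged 12.58 ± 0.25 and 12.05 ± 0.45 (difference -0.53, adjusted p = 0.391). *Slc2a3*, which encodes GLUT3, fell from 7.24 ± 0.40 to 6.07 ± 0.50 under the 2-fold rule (difference -1.17, adjusted p = 0.101, limma). Of the 17 further transport genes, 5 were higher and 12 lower (median -0.09), and these 2 calls, *Tbc1d1* and *Slc2a3*, were the only ones.

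AMP-activated protein kinase senses the energy state of the fibre, and its beta subunit binds glycogen. *Prkab2*, the beta subunit abundant in muscle, fell from 14.60 ± 0.22 to 13.43 ± 0.65 under the 2-fold rule (difference -1.17, standard error 0.282, adjusted p = 0.122, limma). *Prkag3*, the gamma subunit of fast muscle, averaged 11.12 ± 0.52 and 10.21 ± 0.43 (difference -0.91, adjusted p = 0.209). The list of further glycogen synthesis regulators held 17 genes, 6 higher and 10 lower (median -0.07), with *Prkab2* as the 1 call.

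Among the further glycolytic enzymes and isoforms, 10 of 16 were higher and 5 lower (median 0.12), with 0 calls. *Bpgm* (difference -0.77, adjusted p = 0.20) makes the bisphosphoglycerate of red blood cells. *Tigar* (-0.71, adjusted p = 0.268, limma) removes the same activating sugar bisphosphate as the PFKFB enzymes. In the list of pyruvate fate and gluconeogenesis, 13 of 20 genes were higher (median 0.13) with 0 calls. *Fbp2*, the muscle fructose bisphosphatase that opposes phosphofructokinase, averaged 10.31 ± 0.34 and 11.27 ± 0.34 (difference 0.96, adjusted p = 0.105, limma). *Dlat*, a core subunit of pyruvate dehydrogenase, was 0.64 higher (adjusted p = 0.19), and *Pdp1*, the phosphatase that activates that complex, was lower (difference -0.47, adjusted p = 0.242). *Pdk4*, which inactivates it, was near scramble (difference 0.06).

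Of 8 pentose phosphate genes 4 were higher and 4 lower (median 0.075), and *H6pd* had the lowest p (difference -0.62, adjusted p = 0.234, limma). The 13 transcription factors known to act on glycolytic genes had a median of 0.07 and 0 calls. *Hif1a* was 0.14 higher, and *Esrra* had the lowest p (difference 0.47, adjusted p = 0.434). Transcript levels of these factors do not show their activity.

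**Figure D5:**
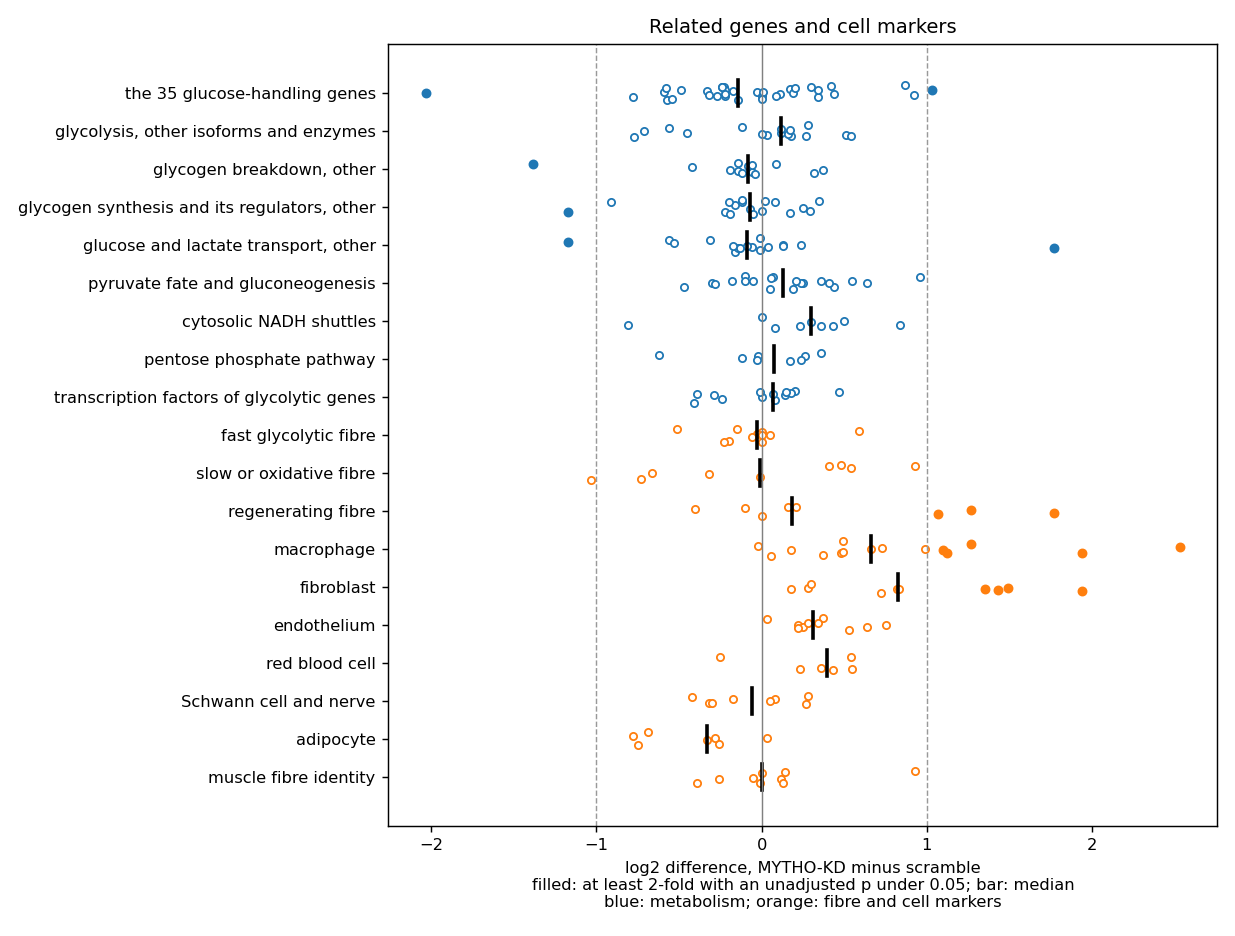
Log2 difference between MYTHO-KD and scramble (x axis) for the 35 genes and for the members of each related list or marker list (y axis), with 1 point per probe set and a bar at the median. Filled points passed the 2-fold rule, and macrophage and fibroblast markers lie furthest to the right.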

How the data were processed

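Total RNA of 8 GAS samples, 4 per group, was hybridized to Clariom S Mouse arrays. The authors processed the arrays with Transcriptome Analysis Console at its default settings (the study's methods name SST-RMA signals, and the submitters' processing notes name Affymetrix Expression Console and RMA, so which normalization the table holds is not settled) and deposited 1 average and 1 SD per group on the log2 scale, with flags for expression and mm10 annotation. The kind of average is not given in the sources used here, and p-values computed as if it were a plain mean may be off if it is not. SST-RMA widens fold changes relative to plain RMA. The table's comparison columns (fold change, p-value, false discovery rate) were not used, and 0 columns of single arrays were left unused.

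MYTHO-KD minus scramble was tested from averages and SDs with limma 3.58.1 in R 4.3.3. The mean of both groups' variances, on 6 residual degrees of freedom, was shrunk by squeezeVar towards a prior (SD 0.284 on 5.85 degrees of freedom). Tests were two-sided, with Benjamini-Hochberg adjustment across 22206 probe sets. The test was checked on simulated data, drawn as independent arrays with the same SD in both groups. Pairing of legs and unequal SDs were not covered by that check. The members, 18 further lists and tests were chosen with earlier results of these data known. All members are described, with full statistics for those at an unadjusted p under 0.05, and up to 3 genes of lowest p are named per further list; others named from these lists (such as *Calm2*, *Got2*, *Bsg* or *Pdk4*) were chosen for their role after values were seen. Older symbols were matched through RefSeq. Nothing in the labels says that arrays of a group came from separate mice, so p-values measure the spread between these arrays, and their number limits the precision. Alternatives changed the variance model, the filter, the probe sets per symbol, the centring and the thresholds. Some genes of the further lists are not reported here.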

Additional observations from a re-analysis of the deposited data

How the results depend on the processing

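No paired analysis was possible because the values used are group averages and SDs, and for the same reason leaving out each array in turn was not run. No member has a further probe set to use in its place. The log2 differences themselves can change only where a running median over probe sets of like signal is subtracted. There *Slc16a1* stood at 0.99, so that 0 members were called higher, and 0 members changed sign. The other settings (no moderation, a trend with robust fitting, unequal variances, a filter on dim probe sets below the 30th percentile, 1 probe set per symbol) change only p, and under each of them *Pfkfb3* and *Slc16a1* passed the 2-fold rule. At an unadjusted p under 0.05, 2 to 3 members were higher (2 where *Gys1* missed it) and 7 to 8 lower. With 1.5-fold as the limit 2 members were higher (*Gbe1*, *Slc16a1*) and 3 lower (*Phkb*, *Phkg1*, *Pfkfb3*), and with 2-fold and an adjusted p 0 were higher. The number lower at an adjusted p under 0.05 was 0 without moderation, 0 with unequal variances and 3 with a trend and robust fitting, where *Phkg1* (adjusted p = 0.0465) and *Ppp1r3a* (adjusted p = 0.0429) joined *Pfkfb3*. The cause was not tested. Over all probe sets, 191 were called higher and 57 lower. These became 787 and 500 at 1.5-fold, and 38 and 19 at 2-fold with an adjusted p, by construction of the limits. *Mytho* kept its fall in each setting that was run. Signals at the upper end of the scale limit what can be said of *Aldoa*, *Pygm* and *Gapdh*.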
